A study of Homo sapiens with 8 samples.

Results

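The RASSF genes encode the Ras association domain family, a group of scaffold proteins named for a domain that binds RAS-like GTPases. The 10 members, RASSF1 to RASSF10, were chosen by gene symbol among the 19158 genes measured, and all 10 were present. RNA was measured in A549, an established epithelial cell line from a human lung adenocarcinoma that is labelled wild type. Of 8 culture wells, 4 were left untreated and 4 received 1 µM dexamethasone, a synthetic glucocorticoid, for 48 h. The labels name no vehicle for the untreated wells, put all wells in 1 batch, and number the replicates 1, 3, 4 and 5 in each group. This is a single cell line, and p-values measure the spread between its wells.

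The family is divided by where the Ras association domain lies. In RASSF1 to RASSF6 it is near the carboxyl end and is followed by a SARAH domain, a helix through which these proteins bind the Hippo kinases MST1 and MST2 (genes STK4 and STK3). In RASSF7 to RASSF10 it is at the amino end and no SARAH domain is present. Several members, RASSF1 above all, are known as tumour suppressors that tumours silence by methylating CpG-rich promoters, and members have been tied to mitosis, apoptosis and cell adhesion. Glucocorticoids act through the glucocorticoid receptor, which binds DNA at paired 6-base half-sites.

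The family itself was selected on 1 measured value, the fall of RASSF10 in the dexamethasone wells, which was already known from these libraries. The difference of RASSF10 between groups is therefore described with no test. The other 9 genes belong by name, whatever their values, and their p-values come from a test over every gene that passed a filter on low values.

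Promoter sequences are shown for RASSF4 and RASSF9, which rose, and RASSF2, which fell, because their CpG content and half-sites differ. They are RefSeq windows of GRCh38.p14 that run from 250 bases before to 50 after an annotated start, printed 5′ to 3′ on the gene's strand. Capitals mark CG pairs and the 6-letter half-site AGAACA or its reverse complement TGTTCT.
RASSF4, chr10:44959552-44959851, plus strand: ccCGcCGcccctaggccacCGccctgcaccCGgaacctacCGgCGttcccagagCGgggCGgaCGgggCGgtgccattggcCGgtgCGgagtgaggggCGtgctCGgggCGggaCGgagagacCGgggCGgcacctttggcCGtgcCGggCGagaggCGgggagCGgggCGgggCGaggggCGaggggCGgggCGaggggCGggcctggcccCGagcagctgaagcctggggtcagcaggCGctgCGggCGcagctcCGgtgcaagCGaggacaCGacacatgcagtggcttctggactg
RASSF9, chr12:85836360-85836659, minus strand: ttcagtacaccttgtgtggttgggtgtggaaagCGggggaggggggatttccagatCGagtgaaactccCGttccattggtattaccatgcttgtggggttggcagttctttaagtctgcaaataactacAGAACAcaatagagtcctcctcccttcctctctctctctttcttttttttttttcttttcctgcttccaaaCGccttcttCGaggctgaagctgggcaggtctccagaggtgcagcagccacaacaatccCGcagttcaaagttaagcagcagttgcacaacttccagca
RASSF2, chr20:4815098-4815397, minus strand: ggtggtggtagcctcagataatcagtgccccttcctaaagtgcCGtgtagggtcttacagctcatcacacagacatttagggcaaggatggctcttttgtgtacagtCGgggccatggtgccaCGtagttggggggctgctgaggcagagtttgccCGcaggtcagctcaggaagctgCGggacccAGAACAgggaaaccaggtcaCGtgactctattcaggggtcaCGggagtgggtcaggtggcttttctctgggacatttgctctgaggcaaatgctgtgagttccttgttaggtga
The RASSF4 window holds 36 CG pairs and no half-site, while the RASSF9 window holds 6 CG pairs and the RASSF2 window 7, each with 1 half-site. The RASSF2 and RASSF4 windows lie at annotated starts inside their genes, downstream of the 5′ ends at 4823645 and 44959407. They therefore do not describe all promoters of either gene. The RASSF9 window spans the 5′ end of its gene at 85836570. The half-site starts 120 bases before the annotated start in RASSF9 and 64 before it in RASSF2. The median window of 300 bases in the same RefSeq table has 14 CG pairs. The half-site, on either strand, occurs in 14.8% of all such windows and in 3 of the 9 windows that 7 members have there, so it is common among promoters. The full palindrome, AGAACA and TGTTCT with any 3 bases between them, was in none of the 9. The AP-1 motif TGANTCA, also searched on both strands, was in 1 of the 9, a RASSF5 window, and in 7.71% of all windows. RASSF7, RASSF8 and RASSF10 have no entry in the table.

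The unit of the values is not named, and they were read as FPKM, fragments per kilobase of transcript scaled to sequencing depth. Each was divided by a scale factor for its library (0.824 to 1.09). On that reading, levels of different genes can be compared per length. The steps between low values put the depth at 24980000 to 28660000 fragments per library, fewer than the read pairs that the labels give. As a check of the treatment label, FKBP5, a receptor co-chaperone that glucocorticoids induce, had a log2 fold change of 4.33 ± 0.212 (SE, adjusted p = 1.12e-06 by limma). The markers KRT8 and KRT18 were abundant, and 4 of 5 epithelial markers reached 1 FPKM in some library. The exception was EPCAM. Of 5 alveolar type II markers only ABCA3 reached 1 FPKM, and SFTPA1 was listed at 0 in every library. PTPRC and CD3E, taken as leukocyte markers, and COL1A2 of fibroblasts had a value of 0 in every library. The sum of 3 fibroblast markers, nearly all COL1A1, was 1.67 to 2.64 scaled FPKM without and 0.30 to 0.422 with dexamethasone, that of 3 leukocyte markers, all CD68, was 3.36 to 5.92 and 1.76 to 2.37, and their part in the results was not tested. In RNA from whole wells of this single cell line, fewer cells expressing a gene and less RNA per cell cannot be told apart. Both libraries numbered 5 lay away from the others of their group and had the lowest scale factors, 0.824 untreated and 0.928 with dexamethasone, which touches several members below.

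RASSF10, an amino-terminal member tied to mitosis and silenced by methylation in several cancers, lies on chromosome 11 (ENSG00000189431, 13009577 to 13012106, plus strand, GRCh38 as for all positions here). It stood at 9.77, 10.4, 9.79 and 11.2 scaled FPKM in untreated replicates 1, 3, 4 and 5. In dexamethasone replicates 1, 3, 4 and 5 it stood at 0.175, 0.207, 0.155 and 0.221 scaled FPKM. Every untreated library was far above every treated library, and the spread within each group was small beside that gap. The group means were 10.3 ± 0.674 and 0.189 ± 0.0299 scaled FPKM (SD, n = 4 each), a 54.4-fold lower level with dexamethasone. On the log2(FPKM + 1) scale, which understates changes of low genes, the log2 fold change was -3.25. This placed it second among falls, at rank 2 of 12161 genes tested, behind the cytokine gene IL11 at -3.32. The family was chosen for this fall, and RASSF10 passed the filter only through the untreated group, so its rank is a description. With 0.1 added to FPKM in place of 1, their order turned, with RASSF10 at -5.17 and IL11 at -4.715.

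RASSF10 has 1 annotated transcript, of 2804 bases, so its fragments can be estimated from the depth. The untreated libraries held about 706, 808, 774 and 647 fragments in the order of replicates, and the dexamethasone libraries about 13, 16, 12 and 16. The treated level therefore rested on few fragments, but was above 0 in each library. With any 1 library left out the log2 fold change stayed between -3.27 and -3.23, and without both libraries numbered 5 it was -3.27.

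**Figure D1:**
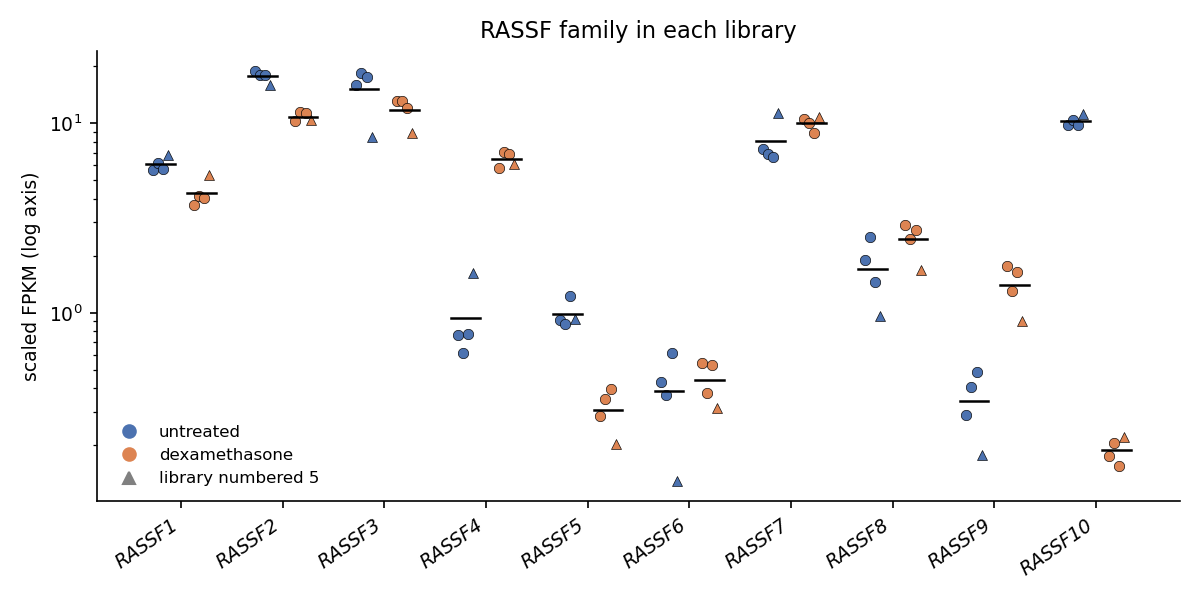
Scaled FPKM of each RASSF gene (log axis) in the 4 untreated and 4 dexamethasone libraries; points are libraries, triangles those numbered 5, and bars group means. RASSF10 runs from 9.77 to 11.2 without and from 0.155 to 0.221 with dexamethasone, while RASSF4 and RASSF9 lie higher with it.

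RASSF4 and RASSF9 moved the other way. RASSF4, a carboxyl-terminal member that binds active RAS and MST kinases (ENSG00000107551, chromosome 10, 44959407 to 44995891, plus strand), had 0.76, 0.616, 0.772 and 1.62 scaled FPKM in untreated replicates 1, 3, 4 and 5. With dexamethasone it had 5.80, 7.03, 6.87 and 6.07. The lowest treated library was more than any untreated library, with untreated replicate 5 the highest of its group. RASSF4 rose from 0.943 ± 0.459 to 6.44 ± 0.600 scaled FPKM (SD, n = 4 each), 6.83-fold, with a log2 fold change of 1.96 ± 0.164 (SE, adjusted p = 2.97e-05 by limma). It overlaps DEPP1 on the opposite strand over 7829 bases. DEPP1 was at 0.215 ± 0.0829 and 0.279 ± 0.0544 scaled FPKM (SD, n = 4 each), below RASSF4 in every library.

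RASSF9, an amino-terminal protein of recycling endosomes that binds the peptide-amidating enzyme PAM (ENSG00000198774, chromosome 12, 85800697 to 85836570, minus strand), had 0.29, 0.408, 0.486 and 0.178 scaled FPKM without dexamethasone. With it the values were 1.76, 1.30, 1.65 and 0.91 in replicates 1, 3, 4 and 5. The groups did not overlap, and replicate 5 was the lowest library of each. RASSF9 rose from 0.341 ± 0.135 to 1.40 ± 0.383 scaled FPKM (SD, n = 4 each), 4.12-fold, with a log2 fold change of 0.83 ± 0.132 (SE, adjusted p = 0.00146 by limma). It passed the filter on low values only through the dexamethasone group; with no filter the adjusted p was 0.00313 by limma. With each library's trend on GC content removed the log2 fold change was 0.45 (adjusted p = 0.0163 by limma), and the transcript has 35.4% GC. Its 1 transcript of 5515 bases puts this at about 20 to 76 fragments per untreated and 133 to 254 per treated library. PAM itself rose from 4.64 ± 0.815 to 8.56 ± 1.26 scaled FPKM (SD, n = 4 each), with a log2 fold change of 0.76 ± 0.152 (SE, adjusted p = 0.00508 by limma). PAM was singled out, as the partner of RASSF9, after its values were seen.

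RASSF2, RASSF1 and RASSF5 were lower with dexamethasone. RASSF2, a carboxyl-terminal member that stabilises MST kinases (ENSG00000101265, chromosome 20, 4780023 to 4823645, minus strand), had 18.8, 17.9, 17.9 and 15.9 scaled FPKM in untreated replicates 1, 3, 4 and 5. It had 10.2, 11.4, 11.3 and 10.4 with dexamethasone. The groups were well apart and the treated libraries close to one another. The means were 17.6 ± 1.24 and 10.8 ± 0.602 scaled FPKM (SD, n = 4 each), and the log2 fold change was -0.66 ± 0.111 (SE, adjusted p = 0.00198 by limma).

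RASSF5, also called NORE1 or RAPL, links RAP1 to integrin adhesion in lymphocytes and binds RAS in epithelial cells (ENSG00000266094, chromosome 1, 206507530 to 206589448, plus strand). Its scaled FPKM was 0.919, 0.867, 1.22 and 0.932 without and 0.286, 0.349, 0.394 and 0.204 with dexamethasone. All untreated libraries were higher than all treated libraries. RASSF5 fell 3.19-fold in mean, from 0.985 ± 0.159 to 0.308 ± 0.0826 scaled FPKM (SD, n = 4 each), with a log2 fold change of -0.60 ± 0.089 (SE, adjusted p = 0.000885 by limma). It passed the filter only through the untreated group; with no filter the adjusted p was 0.000889 by limma. The gene overlaps EIF2D on the opposite strand over 18157 bases, and EIF2D was much more abundant, at 21.2 ± 4.58 and 21.0 ± 2.14 scaled FPKM (SD, n = 4 each). The 18157 bases are shared by whole gene spans, introns included, and the overlap of exons was not measured. The use of strand in the counting is not given in the sources used here. Without strand, reads from any stretch shared by exons of EIF2D and RASSF5 cannot be told apart.

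RASSF1, the best known member, binds microtubules and MST kinases (ENSG00000068028, chromosome 3, 50329782 to 50340980, minus strand). Its isoforms start at different promoters, of which RASSF1A is the one silenced in tumours, and these gene-level values do not separate them. RASSF1 was at 5.65, 6.16, 5.75 and 6.83 scaled FPKM without and 3.72, 4.11, 4.04 and 5.32 with dexamethasone. Replicate 5 was the highest library in each group, and the groups did not overlap. The log2 fold change was -0.43 ± 0.132 (SE, adjusted p = 0.0376 by limma), the weakest of the calls. It was lost without untreated replicate 1, 3 or 4 or dexamethasone replicate 1, 3 or 4, where it ran from -0.46 to -0.38 with adjusted p of 0.0618 to 0.11 by limma. With the GC trend removed it was -0.13 (adjusted p = 0.365 by limma); the longest RASSF1 transcript has 65.3% GC.

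The remaining 4 members, RASSF3, RASSF6, RASSF7 and RASSF8, overlapped between groups. RASSF3, a short carboxyl-terminal member tied to p53-dependent apoptosis (ENSG00000153179, chromosome 12, 64507001 to 64697567, plus strand), had 15.9, 18.3, 17.6 and 8.43 scaled FPKM without and 13.0, 13.0, 12.1 and 8.85 with dexamethasone. Untreated replicate 5 lay far below the other untreated libraries. The log2 fold change was -0.29 ± 0.237 (SE, adjusted p = 0.382 by limma), and it was -0.53 (adjusted p = 0.0171 by limma) without untreated replicate 5.

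RASSF7, an amino-terminal member tied to spindle assembly (ENSG00000099849, chromosome 11, 560404 to 564021, plus strand), had 7.27, 6.88, 6.62 and 11.4 scaled FPKM without dexamethasone. With it the values were 10.6, 9.98, 8.92 and 10.7. Here untreated replicate 5 was the highest of all 8 libraries, and the other untreated libraries were below every treated library. The log2 fold change was 0.32 ± 0.169 (SE, adjusted p = 0.192 by limma). It was 0.48 (adjusted p = 0.00736 by limma) without untreated replicate 5, and 0.66 (adjusted p = 0.000591 by limma) with the GC trend removed. The longest RASSF7 transcript has 69.2% GC and that of RASSF3 43.9%. RASSF7 overlaps LMNTD2 on the opposite strand over 335 bases, and LMNTD2 was at 1.57 ± 0.385 and 2.11 ± 0.422 scaled FPKM (SD, n = 4 each).

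RASSF8, an amino-terminal protein of cell junctions (ENSG00000123094, chromosome 12, 25959029 to 26079892, plus strand), ranged from 0.959 to 2.50 scaled FPKM without and from 1.69 to 2.89 with dexamethasone, and replicate 5 was lowest in each group. Its log2 fold change was 0.36 ± 0.192 (SE, adjusted p = 0.19 by limma), and 0.086 (adjusted p = 0.577 by limma) with the GC trend removed. It overlaps the antisense gene RASSF8-AS1 over 737 bases, as RASSF1 does RASSF1-AS1 over 790. RASSF6, which binds the BH3-like protein MOAP1 and promotes apoptosis (ENSG00000169435, chromosome 4, 73571550 to 73620631, minus strand), was at 0.13 to 0.613 scaled FPKM without and 0.315 to 0.545 with dexamethasone. It was too low for the filter. Without a filter its log2 fold change was 0.07 ± 0.108 (SE, adjusted p = 0.711 by limma), and without untreated replicate 5 it was -0.030.

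**Figure D2:**
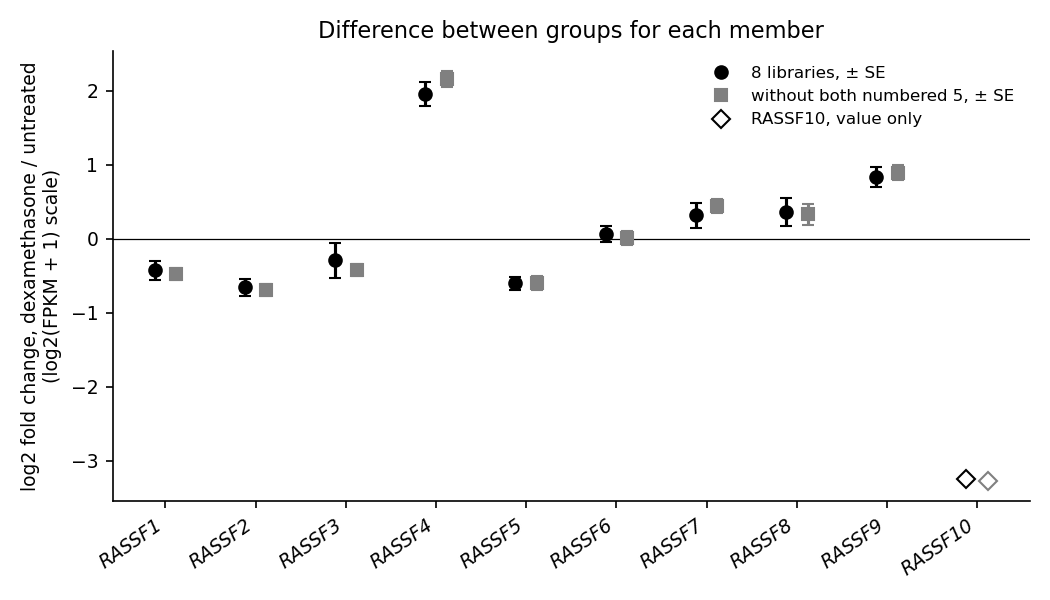
Log2 fold change of each RASSF gene, dexamethasone against untreated, on the log2(FPKM + 1) scale; circles are 8 libraries and squares 6 libraries without those numbered 5, with bars of 1 SE, and diamonds are RASSF10 with no test. RASSF6 is shown from the fits that kept it. RASSF4 at 1.96 and RASSF10 at -3.25 mark the extremes.

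Apart from RASSF10, 8 members passed the filter of at least 0.5 FPKM in at least 4 libraries. At a limma adjusted p under 0.05, 2 of these 8 were higher (RASSF4, RASSF9) and 3 lower (RASSF1, RASSF2, RASSF5), while 26.7% of the 12161 genes tested passed, 12.4% higher and 14.3% lower. RASSF5 and RASSF9, like RASSF10, passed the filter only through the group in which each was high, so this count is a description. With no filter, 5 of the 9 members were called, against 21.7% of 16561 genes, 9.76% higher and 11.9% lower. Without both libraries numbered 5, 7 of 9 were called, RASSF3 and RASSF7 being the additions, against 45.1% of 12236 genes, 22.2% higher and 22.9% lower. The groups did not overlap for 5 of the 8 members that passed the filter, against 31.5% of the genes tested, 14.5% higher and 17.0% lower. RASSF5 and RASSF9 are among these 5, so this count too is a description. RASSF6, below the filter, overlapped.

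The family's total and its make-up both differed between groups. The 10 genes summed to 61.5 ± 2.9 scaled FPKM without and 48.1 ± 2.38 with dexamethasone (SD, n = 4 each). Without RASSF10 the sums were 51.2 ± 3.37 and 47.9 ± 2.4 and overlapped, at 46.3 to 54.1 and 44.5 to 50.0. RASSF10 made up 16.8% ± 1.79 of the untreated sum and 0.395% ± 0.0759 of the treated sum (SD, n = 4 each). RASSF4 went from 1.56% ± 0.85 to 13.4% ± 1.05 (SD, n = 4 each). RASSF2 and RASSF3 together held 53.0% ± 7.14 and 46.8% ± 2.53 (SD, n = 4 each). Among amino-terminal members other than RASSF10 the sum went from 10.1 ± 1.7 to 13.9 ± 0.895 scaled FPKM (SD, n = 4 each), with no overlap. The shares are of sums that include RASSF10, for whose fall the family was chosen. That fall by itself raises the share of every other gene, and shares without RASSF10 were not computed. These sums and shares are described without a test.

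**Figure D3:**
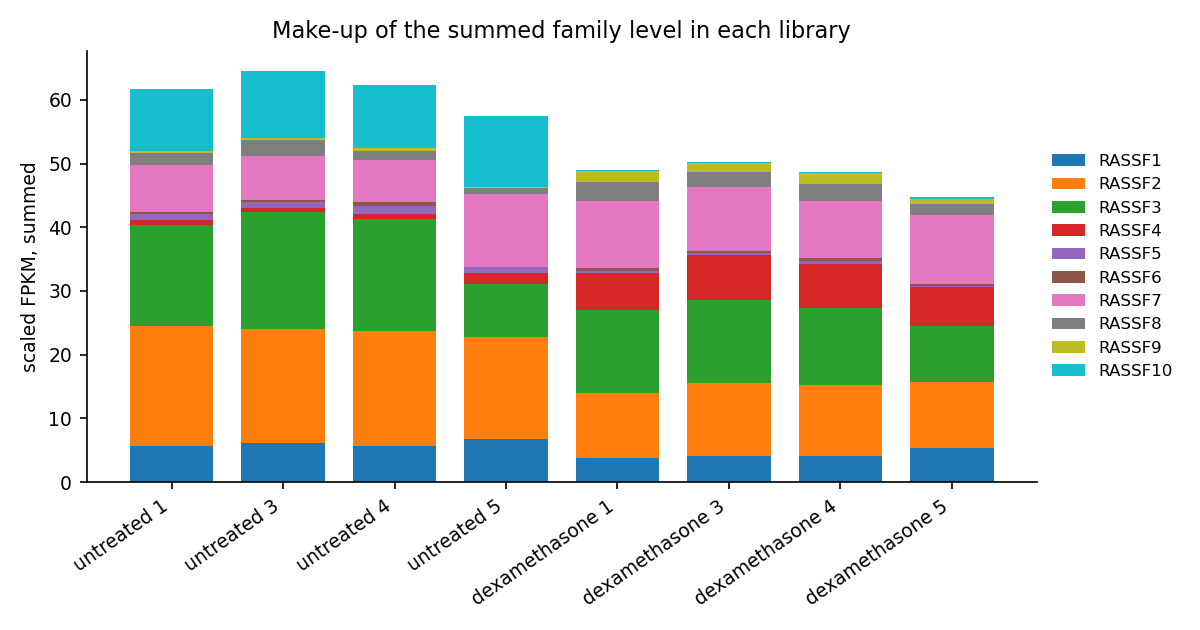
Scaled FPKM of the 10 RASSF genes stacked for each library. The RASSF10 segment at the top of the untreated bars, 15.7% to 19.5% of each, is at most 0.494% of a treated bar, and the RASSF4 segment is larger in every treated bar.

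Ordered by mean level in untreated cells, the genes were RASSF2, RASSF3, RASSF10, RASSF7, RASSF1, RASSF8, RASSF5, RASSF4, RASSF6 and RASSF9. Only RASSF1 and RASSF8, and RASSF4 and RASSF6, were neighbours in this order whose 4 libraries did not overlap. With dexamethasone the order was RASSF3, RASSF2, RASSF7, RASSF4, RASSF1, RASSF8, RASSF9, RASSF6, RASSF5 and RASSF10. There the neighbours from RASSF7 to RASSF4, RASSF4 to RASSF1, RASSF1 to RASSF8 and RASSF9 to RASSF6 were apart, and the others overlapped. RASSF4 went from rank 8 to rank 4 and RASSF10 from rank 3 to rank 10.

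The genes measured within 500 kb of RASSF10 were TEAD1, ARNTL, BTBD10 and PTH. TEAD1, a DNA-binding partner of YAP1 whose gene ends 65094 bases before RASSF10, had 23.4, 27.7, 25.0 and 6.45 scaled FPKM without and 32.2, 27.8, 30.0 and 17.6 with dexamethasone. Its log2 fold change was 0.51 ± 0.406 (SE, adjusted p = 0.379 by limma), and 0.05 without untreated replicate 5, the lowest of the 8 libraries. ARNTL, a circadian clock activator, had a log2 fold change of 0.49 ± 0.175 (SE, adjusted p = 0.0663 by limma), and 0.64 (adjusted p = 0.0111 by limma) without dexamethasone replicate 5. BTBD10 had 0.17 ± 0.158 (SE, adjusted p = 0.436 by limma), and -0.021 with the GC trend removed. PTH was listed at 0 in all libraries. None of the 3 tested neighbours had a fall past the threshold, and the groups overlapped in each. The family was chosen for the fall of RASSF10, so how it differs from these neighbours is a description only.

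**Figure D4:**
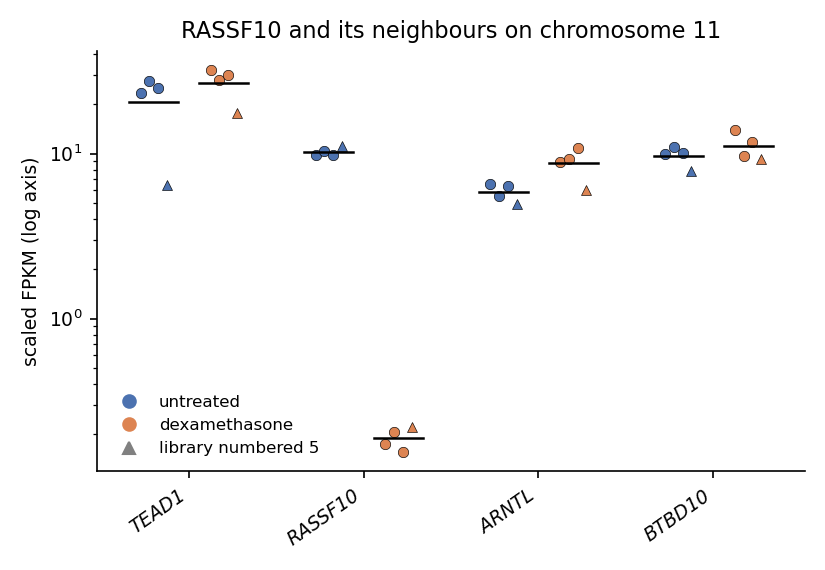
Scaled FPKM (log axis) of RASSF10 and its measured neighbours in chromosomal order, per library; triangles are libraries numbered 5 and bars group means. PTH, at 0 throughout, is not drawn. TEAD1, ARNTL and BTBD10 overlap between groups, unlike RASSF10, for whose fall the family was chosen.

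Genes whose pattern over the 8 libraries was most like that of RASSF10 were ranked by the root mean square difference of centred log2 values. The nearest 5 were IL11, CLDN2, SEMA6B, SYT13 and MGAT5B, at differences of 0.17, 0.30, 0.35, 0.41 and 0.42. IL11, a cytokine of the IL-6 family, was at 13.2 ± 3.4 and 0.401 ± 0.0782 scaled FPKM (SD, n = 4 each). SYT13, a member of the synaptotagmins, was at 16.3 ± 1.17 and 2.15 ± 0.319 scaled FPKM (SD, n = 4 each). Being ranked for their likeness, these genes carry no test here.

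Genes that work with RASSF proteins were read from the same test, as 6 lists. Over all genes tested the median log2 fold change was 0.01 and, as above, 26.7% were called, against 45.1% without both libraries numbered 5. With no scaling 3281 of 12161 genes were called, and 4470 with the GC trend removed. Without untreated replicate 1, 3, 4 or 5 the counts over all genes were 2538, 2930, 2892 and 3846. Without dexamethasone replicate 1, 3, 4 or 5 they were 2380, 2408, 2317 and 3651. The fits with 1 library left out tested 12252 to 12285 genes. Of 13 Hippo kinases and scaffolds, 2 rose, 1 fell and 10 did not pass, with a median of 0.39, which was 0.09 with the GC trend removed. NF2, the merlin scaffold upstream of the kinases, fell from 32.9 ± 4.48 to 20.2 ± 2.7 scaled FPKM (SD, n = 4 each), with a log2 fold change of -0.68 ± 0.142 (SE, adjusted p = 0.00664 by limma). LATS2, the kinase that phosphorylates YAP, rose with a log2 fold change of 0.46 ± 0.124 (SE, adjusted p = 0.0217 by limma), a call lost without dexamethasone replicate 1, 3 or 4 (0.46, 0.43 and 0.47) and with no scaling (adjusted p = 0.0791 by limma). STK3 and STK4, the kinases that bind the SARAH domain, had log2 fold changes of 0.39 (adjusted p = 0.143 by limma) and 0.32 (adjusted p = 0.259 by limma). The count of 3 called Hippo kinases and scaffolds was 1 when dexamethasone replicate 1, 3 or 4 was left out or with no scaling, 5 when dexamethasone replicate 5 was, and 9 when both numbered 5 were.

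Of 8 Hippo effectors, 4 rose (YAP1, WWTR1, VGLL3, VGLL4) and TEAD4 fell, with a median of 0.36. YAP1, the coactivator that the pathway restrains, went from 15.7 ± 3.36 to 26.5 ± 3.94 scaled FPKM (SD, n = 4 each), with a log2 fold change of 0.73 ± 0.184 (SE, adjusted p = 0.0163 by limma). TEAD4, which carries YAP1 to DNA, went from 23.1 ± 5.55 to 13.7 ± 2.16 scaled FPKM (SD, n = 4 each), with a log2 fold change of -0.70 ± 0.177 (SE, adjusted p = 0.0173 by limma). The YAP1 call was lost without dexamethasone replicate 1, 3 or 4 (0.69, 0.68 and 0.70) and that of TEAD4 without 1 or 4 (-0.65 and -0.63). Of the effectors, 0 were called when dexamethasone replicate 1 or 4 was left out, 1 when its replicate 3 was, 2 when untreated replicate 1 was, and 3 when untreated replicate 3 or 4 was. With no scaling 2 passed, TEAD4 and TEAD2. Once the GC trend was removed, WWTR1 went from 0.38 (adjusted p = 0.0449 by limma) to 0.19 (adjusted p = 0.15 by limma).

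The STRIPAK phosphatase complex, which opposes MST kinases, had 0 of 16 genes past the limma threshold and a median of 0.08. At an unadjusted limma p under 0.05 there were 3 of the 16, against 4772 of all 12161 genes tested. The smallest p belonged to STRN4 (-0.51 ± 0.175, SE, adjusted p = 0.0557 by limma) and SIKE1 (0.42 ± 0.146, SE, adjusted p = 0.061 by limma). When dexamethasone replicate 5 was left out 3 genes passed, STRN4, SIKE1 and PDCD10, and when both numbered 5 were, 5 did. With no scaling STRN4 passed, and with the GC trend removed 1 gene did. Of 14 RAS-like GTPases, RALB rose (0.63 ± 0.174, SE, adjusted p = 0.0255 by limma), RAP2B fell (-0.45 ± 0.139, SE, adjusted p = 0.0367 by limma) and 12 did not pass, with a median of 0.35, which was 0.21 with the GC trend removed. RAP2B lost its call in 7 of the 8 fits that left out 1 library, all but that without untreated replicate 5 (-0.50 to -0.40, adjusted p of 0.0678 to 0.0951 by limma), and with no scaling (adjusted p = 0.12 by limma). RALB lost its call in 4 of them, without untreated replicate 4 or dexamethasone replicate 1, 3 or 4. Of these GTPases, 0 were called when untreated replicate 4 or dexamethasone replicate 1, 3 or 4 was left out, 1 when untreated replicate 3 was or with no scaling, 6 with the GC trend removed, and 7 when both numbered 5 were left out.

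Of 14 binding partners, 13 were tested: MAP1B and PAM rose, AURKA, AURKB and CDC20 fell, and the median was -0.02, a value that changed sign between settings. AURKB, a mitotic kinase, went from 50.7 ± 9.7 to 15.5 ± 2.37 scaled FPKM (SD, n = 4 each), with a log2 fold change of -1.65 ± 0.165 (SE, adjusted p = 9.59e-05 by limma). CDC20, the mitotic activator that RASSF1A binds, went from 93.8 ± 29.7 to 31.3 ± 8.11 scaled FPKM (SD, n = 4 each), with a log2 fold change of -1.54 ± 0.234 (SE, adjusted p = 0.00114 by limma). MOAP1, the partner of RASSF1 and RASSF6, had 0.36 ± 0.125 (SE, adjusted p = 0.0573 by limma). Among 10 genes of DNA methylation and Polycomb silencing, 9 were tested, 4 fell (DNMT1, DNMT3B, UHRF1, EZH2) and none of the 9 rose, with a median of -0.29. DNMT3B did not pass once the GC trend was removed (-0.33, adjusted p = 0.053 by limma). TET1, the gene too low for the filter, was higher with no filter (0.45 ± 0.108, SE, adjusted p = 0.0208 by limma), from 0.332 ± 0.111 to 0.83 ± 0.243 scaled FPKM (SD, n = 4 each). UHRF1, which brings DNMT1 to replicated DNA, had a log2 fold change of -1.21 ± 0.134 (SE, adjusted p = 0.000161 by limma). DNMT1, the maintenance methyltransferase, went from 33.1 ± 1.51 to 16.8 ± 1.24 scaled FPKM (SD, n = 4 each), with -0.94 ± 0.11 (SE, adjusted p = 0.000222 by limma). When untreated replicate 5, or both numbered 5, were left out, 7 were called, TET1 among them. Methylation of the RASSF promoters was not measured.

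**Figure D5:**
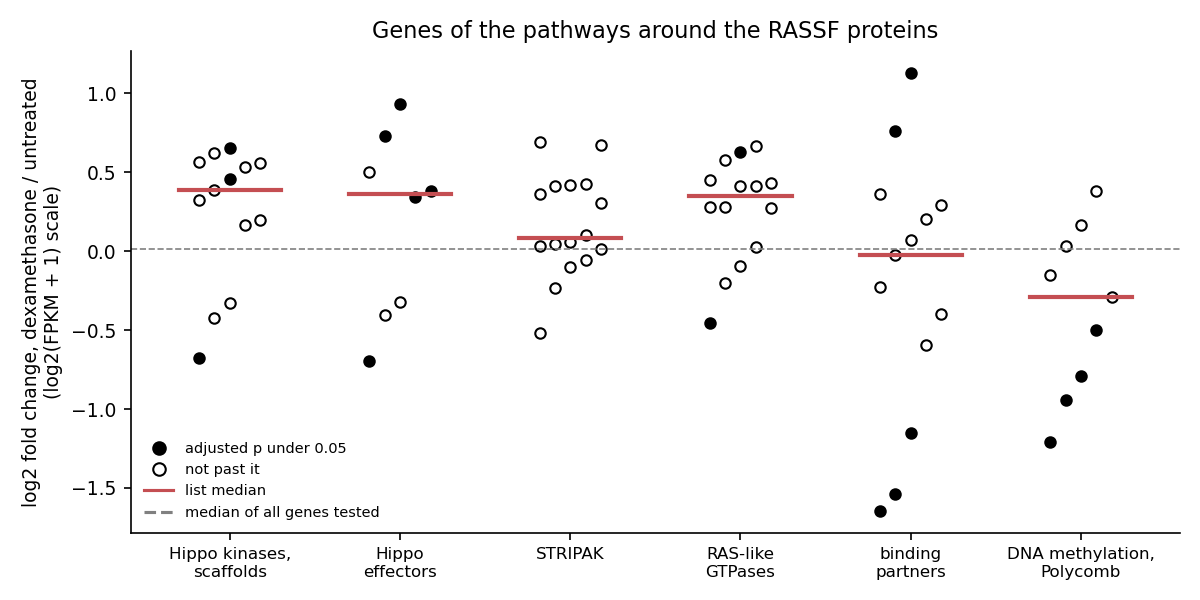
Log2 fold change, dexamethasone against untreated, of each tested gene in the 6 lists; filled points have a limma adjusted p under 0.05, red bars are list medians and the dashed line is the median of all genes tested. STRIPAK has no filled point, and the 4 filled points of DNA methylation and Polycomb genes all lie below 0.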

How the data were processed

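Per the series' design text, ribosome-depleted RNA was sequenced as paired-end reads, trimmed with Cutadapt 3.4, aligned to GRCh38 with STAR 2.7.9a and counted with featureCounts (Subread 2.0.3). The deposited values are not whole numbers and their unit is not named; they were read as FPKM from their size and sums, and the step in which the authors made these FPKM is not given in the sources used here, nor whether strand was used or which annotation. Whole counts were not recovered: 42.9% to 48.9% of low values of genes with 1 transcript lay within 0.1 of a whole fragment, so no count test was run. Depth was 24980000 to 28660000 fragments per library by that estimate, and where 12 to 16 fragments are given, counting error is large.

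Differences in composition between libraries were removed with trimmed-mean (TMM) scale factors (trims of 0.3 for M and 0.05 for A at either end). Genes with at least 0.5 FPKM in at least 4 libraries (3 when libraries were left out) were tested with limma 3.58.1 in R 4.3.3, with trend and robust, on log2(FPKM + 1) of all 8 libraries with group as the only term, two-sided, with Benjamini-Hochberg adjustment over all genes tested. The procedure was tested on simulated data with the means and spread of the untreated libraries in both groups and 200 genes changed. It recovered 10% of changes of 1.5-fold, 42% of 2-fold and 75% of 4-fold, with 2, 8 and 6 false calls. With no gene changed there were 0 calls. A gene that did not pass is therefore not shown to be unchanged. The 18 alternatives changed the pseudocount, filter, scaling, limma settings, replicate block, GC trend or libraries included. Strand, overlaps, transcript lengths and GC content came from GENCODE v44, in which 19065 genes were found by identifier. Members and lists were chosen with earlier results of these data known. The named genes are all members, the 2 genes of smallest p in each list, genes within 500 kb of RASSF10, the 5 most like it, and FKBP5, TSC22D3 and PER1; other list genes were named after their values were seen. TSC22D3 and PER1 had log2 fold changes of 3.87 and 1.94 (limma adjusted p = 4.68e-07 and 3.92e-05).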

Additional observations from a re-analysis of the deposited data

Results flagged for a closer look

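In 66 groups of 4 libraries, 1 for each named gene and group, the highest or lowest library was compared with the range of its group. A library lay apart by that measure in 7 of them; chance alone picks about 1 in 20 groups, here 3. It was untreated replicate 5 in 5 cases and dexamethasone replicate 5 in 2. In untreated replicate 5, RASSF4 was at 1.62 and RASSF7 at 11.4 scaled FPKM, each above the other untreated libraries. CDC20 at 138 and, among genes most like RASSF10, CLDN2 at 34.2 and SEMA6B at 11.9 scaled FPKM were also high there. In dexamethasone replicate 5, YAP1 was low at 20.6 and STRN4 high at 36.4 scaled FPKM. The part these libraries play in the differences was not tested beyond leaving them out.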

How the results depend on the processing

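RASSF2, RASSF4, RASSF5 and RASSF9 kept their direction and their call in every alternative that tested them. RASSF1 lost its call in 7 of them, while RASSF3 and RASSF7 gained one without untreated replicate 5 and without both libraries numbered 5, and RASSF7 also with the GC trend removed. The number of genes called was 3251; it was 5747 with the replicate block, 5514 without both libraries numbered 5, and 5609 without them and without a filter, an alternative chosen after seeing the data. Leaving out 1 library gave 2317 to 3846 genes, and 4 to 7 of the RASSF genes other than RASSF10, against 5. With at least 1 FPKM required in 4 libraries, 3 RASSF genes were called of 6 tested, since RASSF5 and RASSF9 then fail the filter. The count over all genes was then 2995 of 11444. Among the genes given with a fold change by the naming rule, those that changed sign were RASSF6, at -0.030 without untreated replicate 5 (-0.030 to 0.11 over the single libraries left out), and BTBD10, at -0.021 with the GC trend removed. The median of the binding partners turned to 0.04 with the GC trend removed, 0.05 without untreated replicate 3 and 0.03 without dexamethasone replicate 4. The cause was not tested. RASSF10 moved to -5.17 with a pseudocount of 0.1, and to -3.02 with the GC trend removed.

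The replicate numbers were not taken as pairs. Libraries of the same number deviated from their group means with correlations of 0.292, 0.066, 0.315 and 0.713 across genes for replicates 1, 3, 4 and 5. Untreated replicates 3 and 4 deviated most like dexamethasone replicate 1. Dexamethasone replicates 3, 4 and 5 each deviated most like the untreated replicate of the same number. For 3 and 4 the margin was narrow (0.066 against 0.038, and 0.315 against 0.301). The main p-values leave out any effect shared by libraries of the same number. With the replicate block 6 RASSF genes were called, RASSF8 being added (0.36, limma adjusted p = 0.0422). So were 10 of 13 Hippo kinases and scaffolds, 6 of 16 STRIPAK genes and 8 of 14 RAS-like GTPases. Over all genes that block called 5747 of 12161. Depth limits the low levels of RASSF5, RASSF6, RASSF9 and RASSF10.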
